A study of Mus musculus with 13 samples.

Results

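The genes described here are 8 regulators and products of the cartilage, bone and tendon lineages, out of 25655 genes measured. They were chosen by name: the chondrogenic factors Sox9, Sox5 and Sox6, the osteogenic genes Runx2, Alpl and Spp1, and the tendon factors Scx and Mkx, and all 8 were present in each of 13 libraries. Each library was a primary culture of dermal fibroblasts from the skin of a neonatal mouse, grown without treatment. The study compared 6 wild-type (WT) cultures with 7 cultures homozygous for the G234D allele of Fbn1 (Fbn1 G234D/G234D), the gene of fibrillin-1, to ask whether the mutation changes gene expression within the fibroblasts themselves. Set 1 held the WT cultures W1 to W4 and the G234D cultures M1 to M4, and the additional set 2 held W5 and W6 and M5, M6 and M7. The numbers in the titles of set 1 fall into an earlier run below 7000 (W1, W2, M1, M2) and a later run above it (W3, W4, M3, M4). W1 carries a number well apart from the other earlier cultures, and no label says what the numbers mark. The labels name neither strain nor passage, and each culture came from a separate mouse as far as the design text says.

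SOX9 is the transcription factor on which cartilage formation depends, and it acts with SOX5 and SOX6 on the collagen II gene Col2a1 and the aggrecan gene Acan. RUNX2 commits mesenchymal cells to the osteoblast lineage ahead of osterix (Sp7), and mature osteoblasts make tissue-nonspecific alkaline phosphatase (Alpl), osteopontin (Spp1) and osteocalcin (Bglap). Scleraxis (Scx), a basic helix-loop-helix factor, and Mohawk (Mkx), a homeobox factor, mark and maintain tendon cells, with tenomodulin (Tnmd) as a late product. Dermal fibroblasts share a mesenchymal origin with these lineages but normally form none of these tissues. Spp1 is also made by macrophages, Sox6 by skeletal muscle cells and Sox5 by cells of the neural crest.

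The values were in TPM (transcript abundance scaled to a fixed total per library), which correct for transcript length, so levels of different genes can be set side by side. At 1 TPM or above stood 11741 to 12042 genes per culture. The number of reads behind a TPM value is not recoverable, so the depth is unknown and no counting interval can be given for the low genes. All 12 fibroblast markers had a mean over 1 TPM. Summed keratinocyte markers lay between 3.28 and 12.7 TPM and summed endothelial markers between 3.32 and 4.59 TPM. Markers of skeletal muscle and of Schwann cells and melanocytes stood apart in M1 and M2, and these sums are given beside the results they accompany. In bulk RNA, a change in the number of cells of a type and a change in RNA per cell cannot be told apart.

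Levels differed widely between the 8 genes. Spp1 was highest, with a median of 733 TPM over the 13 cultures, above 99.3% of all genes. It was followed by Sox9 (19.1 TPM), Runx2 (12.1 TPM), Scx (9.91 TPM) and Mkx (1.67 TPM), and then by Alpl (0.548 TPM), Sox6 (0.308 TPM) and Sox5 (0.196 TPM). Sox9 exceeded Runx2 in 13 of 13 cultures, although their ranges overlapped. Runx2 exceeded Scx in 10 of 13, with W5, M6 and M7 the other way. Scx and Mkx, and Mkx and Alpl, had ranges that did not overlap. Alpl exceeded Sox6 in 9 cultures and Sox6 exceeded Sox5 in 10, so the 3 low genes were not separated beyond their spread. All 13 cultures had Sox9, Runx2, Scx, Mkx and Spp1 at 1 TPM or more. Alpl and Sox5 reached 1 TPM in 0 cultures and Sox6 in 2.

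**Figure D1:**
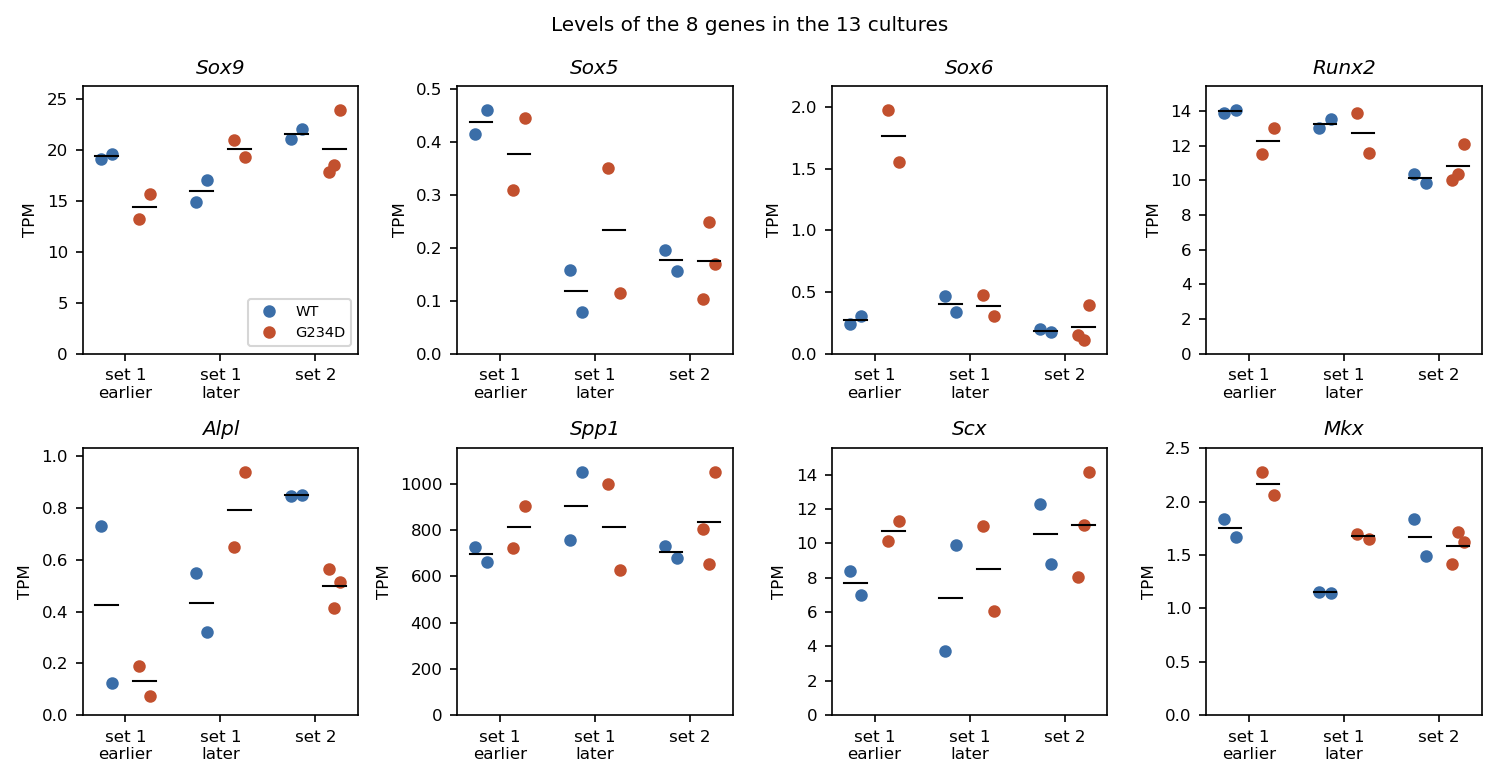
TPM of the 8 genes (linear axes from 0, 1 panel a gene) in WT and G234D cultures of the earlier and later runs of set 1 and of set 2. Points are cultures and lines are means of 2 or 3 cultures. Sox6 reached 1 TPM only in M1 and M2, and Sox9 was lower in those 2 cultures than in the WT cultures W1 and W2.

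Among the osteogenic genes, Spp1 and Alpl lay at opposite ends of the order although both are textbook products of RUNX2-positive osteoblasts. Their upstream sequences are shown because these are the highest and the lowest of the 3 osteogenic genes. They are the 250 bases before the transcription start in the RefSeq promoter table, build GRCm38.p6 (the assembly of mm10), written 5′ to 3′. Capitals mark the core RUNX motif TGTGGT or its reverse complement ACCACA. The Spp1 window lies at chr5:104434861-104435110 on the plus strand and the Alpl window at chr4:137796385-137796634 on the minus strand.
Spp1: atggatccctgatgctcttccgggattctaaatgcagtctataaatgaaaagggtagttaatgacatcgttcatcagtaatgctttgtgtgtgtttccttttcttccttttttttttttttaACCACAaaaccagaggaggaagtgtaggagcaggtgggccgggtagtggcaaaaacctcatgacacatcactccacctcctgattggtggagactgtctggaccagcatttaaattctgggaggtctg
Alpl: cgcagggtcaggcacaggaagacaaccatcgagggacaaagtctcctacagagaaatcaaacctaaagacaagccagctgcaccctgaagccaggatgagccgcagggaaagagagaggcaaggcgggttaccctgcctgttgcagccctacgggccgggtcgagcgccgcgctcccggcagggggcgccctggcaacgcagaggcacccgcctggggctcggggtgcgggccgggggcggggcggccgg

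The Spp1 window held 1 match, on the antisense strand, with its first base at position −128 relative to the start. The Alpl window held 0 matches and was 68.4% G and C, against 43.6% for Spp1. Of 32817 windows of this length in the table, 14.0% held the motif on either strand. A SOX motif, ATTGTT or its reverse complement AACAAT, was in neither window and in 9.43% of all windows. The table holds 2 starts for Spp1 and 2 for Alpl, and the windows of their other starts held 0 RUNX matches. These are matches of letters and show no binding. The table matched 5 of the 8 genes, and Sox9, Scx and Mkx were not matched. RUNX matches were not confined to the highest gene. The Runx2 window held 1, and of the 6 Sox6 windows those starting at 115846141 and 115824711 held 1 each. Sox6 had a lower median level than Alpl. The Sox5 window held 0.

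Genotype was compared by limma on log2(TPM + 1), a scale that understates differences of low genes. A gene entered the fit of both sets if 6 libraries reached 1 TPM (4 libraries for set 1, 2 for set 2), and was called at a Benjamini-Hochberg adjusted p under 0.05 over all genes tested. Of the 8 genes 5 were tested (Sox9, Runx2, Spp1, Scx and Mkx), and Sox5, Sox6 and Alpl did not pass the filter. Over both sets 0 of the 5 were called, against 0% of all 11942 genes (769 genes had an unadjusted p under 0.05). In set 1 again 0 of the 5 were called, against 0% of 11905 genes; with the replicate number as a block 1 gene of all was called and no member. In set 2, where limma called 1 gene or 0.00829% of 12060, 0 of the 5 were called. The difference between the sets in the effect of genotype was called for 0 of the 5 and for 0% of all genes. Fbn1 itself was not called over both sets (log2 difference 0.15, SE 0.058, adjusted p = 0.742).

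**Figure D2:**
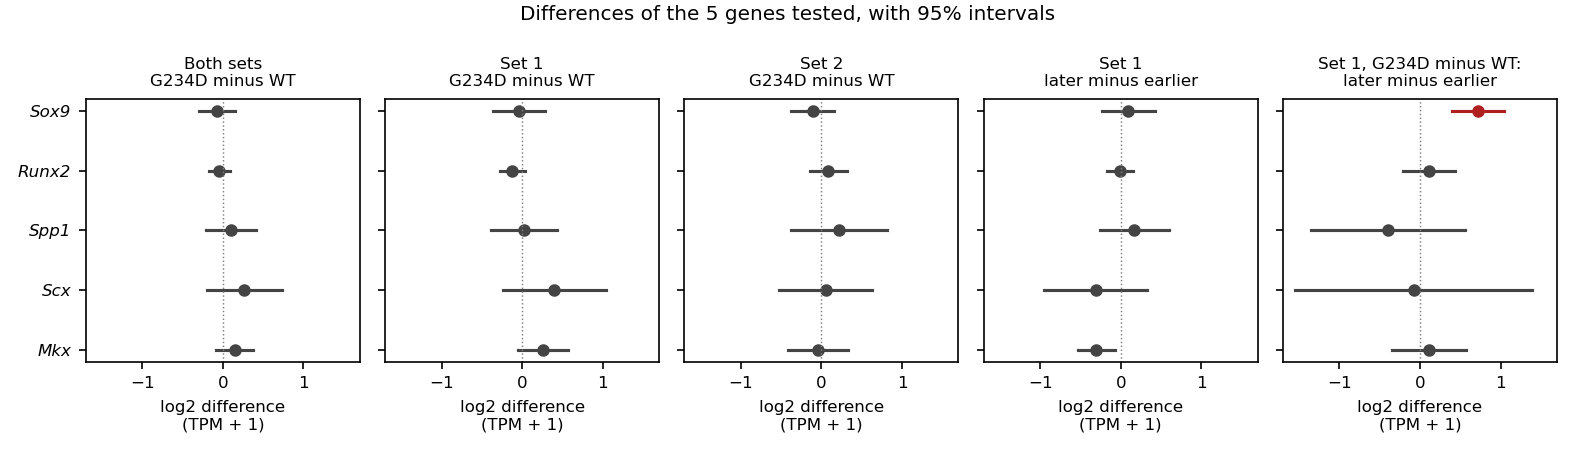
Log2 differences in TPM + 1 (x axis) of the 5 genes tested (y axis), with 95% intervals as bars, in 5 comparisons. The interval of Sox9 in the rightmost comparison, 0.40 to 1.04, belongs to the 1 difference with an adjusted p under 0.05, drawn in red; the other 24 points, in grey, were not called.

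Sox9, the chondrogenic factor (ENSMUSG00000000567, plus strand of chromosome 11, 112782224 to 112787760, mm10), differed by genotype in opposite directions in the 2 runs of set 1. Among the earlier cultures it stood at 19.1 TPM in W1 and 19.6 TPM in W2, against 13.1 TPM in M1 and 15.7 TPM in M2. In the later cultures it stood at 14.8 TPM in W3 and 17.0 TPM in W4, against 21.0 TPM in M3 and 19.2 TPM in M4. The genotypes did not overlap in either run, with G234D lower in the earlier and higher in the later cultures. Set 2 had 21.0 TPM in W5 and 22.0 TPM in W6, and at 17.8 TPM in M5, 18.5 TPM in M6 and 23.9 TPM in M7. There the G234D cultures lay on both sides of the WT cultures.

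On the log2 scale the Sox9 difference was −0.40 in the earlier run, 0.32 in the later run and −0.11 in set 2. The change of the genotype difference from the earlier to the later run was 0.72 (SE 0.14, 95% interval 0.40 to 1.04, adjusted p = 0.0346, limma), where 2.81% of 11905 genes were called (0.932% with a positive and 1.87% with a negative change). With the replicate number as a block the value was the same with an adjusted p of 0.0609, and with no filter it was 0.0773. The adjusted p was 0.104 without W1, 0.125 without W2, 0.0937 without W3, 0.0690 without W4 and 0.125 without M1, and it stayed under 0.05 without M2, M3 or M4. Averaged over the runs, the genotype difference of Sox9 in set 1 was −0.043 (95% interval −0.37 to 0.28, adjusted p = 0.983), and over both sets it was −0.067 (95% interval −0.29 to 0.16, adjusted p = 0.942).

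M1, the culture with the least Sox9, and M2 also held the highest sums of muscle and of Schwann cell and melanocyte markers. The 14 skeletal muscle markers, of which 11 had a mean over 1 TPM and 0 were at 0 throughout, summed to 488 TPM in M1 and 376 TPM in M2. The other G234D cultures summed to between 74.5 and 167 TPM, and the WT cultures to between 109 and 185 TPM. The 13 Schwann cell and melanocyte markers, 8 of them over a mean of 1 TPM and 0 at 0 throughout, summed to 142 TPM in M1 and 143 TPM in M2. Their sum was between 25.9 and 33.5 TPM in the WT cultures and between 28.0 and 51.8 TPM in the other G234D cultures. The 14 macrophage markers, 11 of them over a mean of 1 TPM and 0 at 0 throughout, summed to 171 TPM in M1 and 228 TPM in M2. Their sum was 37.6 to 113 TPM in WT and 49.6 to 175 TPM in the other G234D cultures, so M5 exceeded M1. The 12 fibroblast markers, 0 of them at 0 throughout, had their lowest sums in M1 (23428 TPM) and M2 (25761 TPM), against 26094 to 32796 TPM in WT and 27219 to 34750 TPM in the other G234D cultures. Of the 9 pericyte and smooth muscle markers, 8 had a mean over 1 TPM and 0 were at 0 throughout. They summed to 594 TPM in M1 and 684 TPM in M2, the highest sums. The earlier WT cultures came next, at 584 TPM in W2 and 555 TPM in W1. The other WT cultures summed to between 411 and 453 TPM, and the other G234D cultures to between 310.2 and 410.1 TPM. Between the runs, with genotype held, limma called 4 of 8 of these markers lower in the later run, against 4.35% of all genes. The part of these cells in the Sox9 result was not tested. Without M1 and M2 the Sox9 difference was 0.047 over both sets (adjusted p = 0.936), an alternative chosen after the values were seen.

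Sox6, a partner of SOX9 in cartilage that is also expressed in muscle (ENSMUSG00000051910, minus strand of chromosome 7, 115470872 to 116038796), was high in the same 2 cultures. It stood at 1.97 TPM in M1 and 1.56 TPM in M2. The WT cultures of set 1 stood at 0.238 TPM in W1, 0.308 TPM in W2, 0.464 TPM in W3 and 0.338 TPM in W4. The later G234D cultures, at 0.475 TPM in M3 and 0.302 TPM in M4, lay within or close to the range of those WT cultures. Set 2 ran from 0.174 to 0.198 TPM in WT and from 0.108 to 0.396 TPM in G234D, with the genotypes overlapping.

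The Sox6 difference was 1.116 on the log2 scale in the earlier run, −0.014 in the later run and 0.033 in set 2. Because it failed the filter it was tested without one, and the change between the runs was −1.13 (SE 0.16, adjusted p = 0.0394, limma), where 0.829% of 16776 genes were called. With the replicate block in that fit the adjusted p was 0.140. It was 0.159 without W1, 0.145 without W2, 0.104 without W3, 0.152 without W4, 0.133 without M1, 0.0731 without M2 and 0.0811 without M4, and it stayed under 0.05 without M3 (0.0456). Over both sets the mean within-set difference was 0.29, with an exact permutation p of 0.151 (two-sided, 700 relabelings of genotype within sets). The sums of muscle and of Schwann cell and melanocyte markers given above were highest in the same M1 and M2, and their part in the Sox6 level was not tested.

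**Figure D3:**
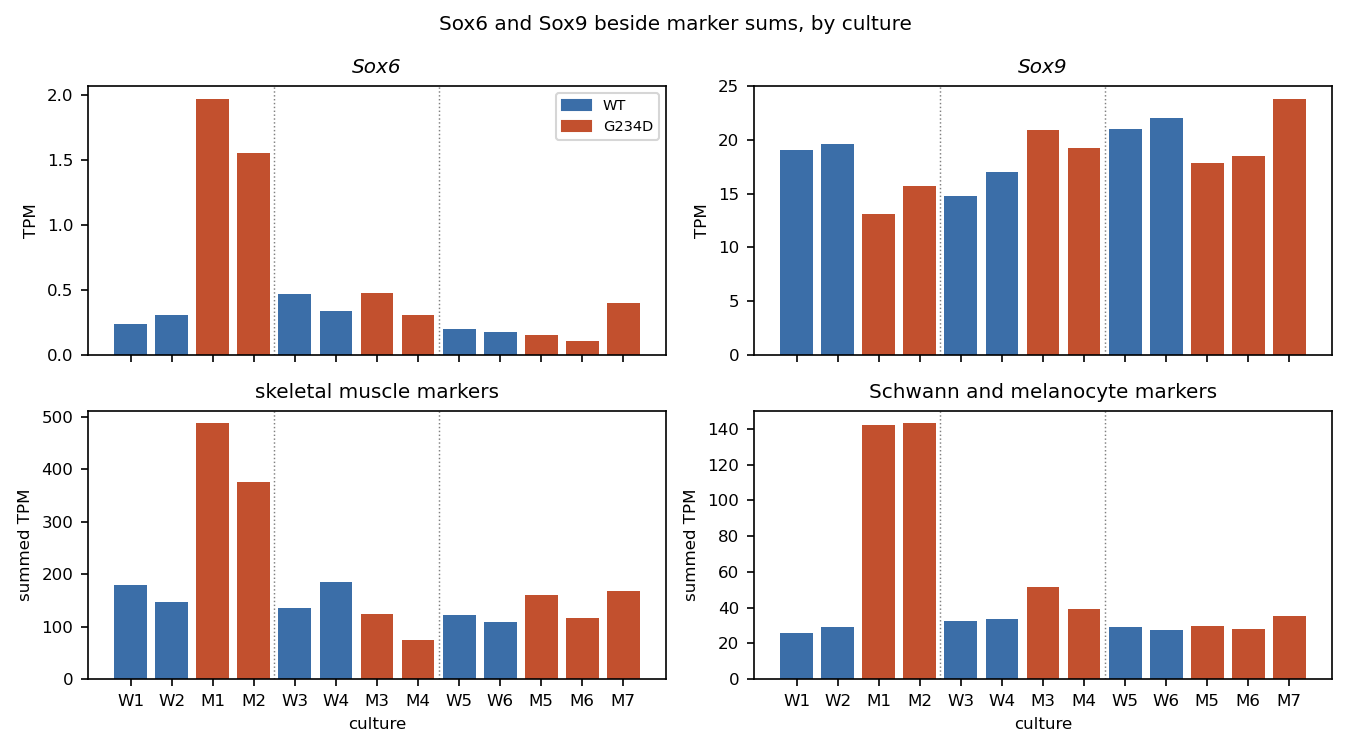
TPM of Sox6 and Sox9 and summed TPM of the skeletal muscle and the Schwann cell and melanocyte markers (y axes from 0) in each culture, with dotted lines between the earlier run, the later run and set 2. Bars are single cultures, and M1 and M2 have the highest bars in 3 panels, at 1.97 and 1.56 TPM for Sox6, while M1 has the lowest bar for Sox9, at 13.1 TPM.

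Sox5, the other SOX9 partner (ENSMUSG00000041540, minus strand of chromosome 6, 143828425 to 144781977), stayed under 0.5 TPM in every culture. The earlier cultures stood at 0.415 TPM in W1, 0.459 TPM in W2, 0.309 TPM in M1 and 0.445 TPM in M2. The later ones stood at 0.158 TPM in W3, 0.0785 TPM in W4, 0.350 TPM in M3 and 0.115 TPM in M4. The earlier and later cultures overlapped only through M3, and set 2 lay between 0.104 and 0.248 TPM. The later run was 0.26 lower on the log2 scale, with an exact permutation p of 0.111 (two-sided, 36 relabelings within genotype, smallest possible p 0.0556). The mean within-set difference by genotype was 0.016 (exact permutation p = 0.821).

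Runx2, the osteoblast-determining factor (ENSMUSG00000039153, minus strand of chromosome 17, 44495987 to 44814797), varied least of the 8 genes, with a coefficient of variation of 13.1% over the 13 cultures. In set 1 it stood at 13.9 TPM in W1, 14.0 TPM in W2, 13.02 TPM in W3 and 13.5 TPM in W4. The G234D cultures stood at 11.5 TPM in M1, 12.998 TPM in M2, 13.9 TPM in M3 and 11.6 TPM in M4. M3 lay within the WT range and the others below it. In set 2 it stood at 10.3 TPM in W5 and 9.87 TPM in W6, and at 9.998 TPM in M5, 10.3 TPM in M6 and 12.1 TPM in M7. The level was lower in set 2 than in set 1 in WT cultures, 10.1 ± 0.332 TPM (SD, n = 2) against 13.6 ± 0.454 TPM (SD, n = 4), a difference between sets that was not tested. The log2 difference by genotype was −0.12 in set 1 (95% interval −0.28 to 0.039, adjusted p = 0.858) and 0.085 in set 2 (95% interval −0.15 to 0.32, adjusted p = 0.897). Over both sets it was −0.043 (SE 0.062, 95% interval −0.18 to 0.091, adjusted p = 0.936).

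Spp1, which encodes osteopontin, an acidic phosphoprotein of bone matrix (ENSMUSG00000029304, plus strand of chromosome 5, 104435118 to 104441050), had overlapping ranges in WT and G234D cultures. Set 1 gave 727 TPM in W1, 663 TPM in W2, 757 TPM in W3 and 1053 TPM in W4. The G234D cultures stood at 724 TPM in M1, 907 TPM in M2, 1001 TPM in M3 and 630 TPM in M4. In set 2 it stood at 733 TPM in W5 and 680 TPM in W6, and at 807 TPM in M5, 654 TPM in M6 and 1052 TPM in M7. The highest cultures (W4, M3 and M7) came from both genotypes and both sets. The log2 difference over both sets was 0.099 (SE 0.14, 95% interval −0.21 to 0.41, adjusted p = 0.937). These 3 cultures did not have the highest macrophage sums, which stood at 40.6 TPM in W4, 50.3 TPM in M3 and 139 TPM in M7, against 228 TPM in M2; the part of macrophages in the Spp1 level was not tested.

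Alpl, the phosphatase that removes the mineralisation inhibitor pyrophosphate (ENSMUSG00000028766, minus strand of chromosome 4, 137741733 to 137796384), was the least even of the osteogenic genes. In the earlier run it stood at 0.729 TPM in W1, 0.122 TPM in W2, 0.191 TPM in M1 and 0.0734 TPM in M2. In the later run it stood at 0.548 TPM in W3, 0.320 TPM in W4, 0.649 TPM in M3 and 0.940 TPM in M4. Both later G234D cultures exceeded both later WT cultures, while in the earlier run the genotypes overlapped. In set 2 it stood at 0.845 TPM in W5 and 0.852 TPM in W6, above 0.565 TPM in M5, 0.415 TPM in M6 and 0.514 TPM in M7. The groups of set 2 did not overlap, and the exact permutation p was 0.1, the smallest that 2 against 3 cultures can give. Over both sets the mean within-set difference was −0.15 (exact permutation p = 0.3, two-sided).

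Scx, the tendon progenitor factor (ENSMUSG00000034161, plus strand of chromosome 15, 76457452 to 76459458), had the widest spread among the 5 genes tested, with a coefficient of variation of 29.8%. In set 1 it stood at 8.37 TPM in W1, 7.005 TPM in W2, 3.70 TPM in W3 and 9.91 TPM in W4. The G234D cultures stood at 10.1 TPM in M1, 11.3 TPM in M2, 10.99 TPM in M3 and 6.04 TPM in M4. M1, M2 and M3 lay above every WT culture of the set, and M4 lay below 3 of the 4 WT cultures. In set 2 it stood at 12.3 TPM in W5 and 8.78 TPM in W6, and at 8.02 TPM in M5, 11.1 TPM in M6 and 14.2 TPM in M7, with the genotypes overlapping. The log2 difference was 0.40 in set 1 (95% interval −0.24 to 1.03, adjusted p = 0.875) and 0.054 in set 2 (95% interval −0.52 to 0.63, adjusted p = 0.976). Over both sets it was 0.27 (SE 0.21, adjusted p = 0.904), and 0.11 without W3. The gene lies inside Bop1, which is on the opposite strand at 57.9 to 71.8 TPM and shares 0 exon bases with it. Among the other members, Sox5 shares 1330 exon bases with Sox5os1 and Runx2 shares 519 with Runx2os1, both on the opposite strand. Neither of these antisense genes had a TPM value here. The libraries were strand-specific, but no label says whether the counting used strand, which bears on these members as well. Mkx and Spp1 share exon bases with genes on their own strand, which counting by strand cannot separate. Mkx shares 201 with AC148004.2, which had no TPM value, and Spp1 shares 309 with Gm42793, which was at 0 TPM throughout.

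Mkx, the tendon homeobox factor (ENSMUSG00000061013, minus strand of chromosome 18, 6934518 to 7004780), was higher in the earlier than in the later cultures of each genotype without passing the test. It stood at 1.84 TPM in W1 and 1.67 TPM in W2, against 1.15 TPM in both W3 and W4. Among the G234D cultures it stood at 2.28 TPM in M1 and 2.06 TPM in M2, against 1.699 TPM in M3 and 1.65 TPM in M4. The runs did not overlap within either genotype. The later run was 0.30 lower on the log2 scale (SE 0.10, 95% interval −0.53 to −0.068, adjusted p = 0.104, limma), in a comparison where 7.14% of 11905 genes were called (2.79% higher and 4.35% lower). The exact permutation p was 0.0556, the smallest that 36 relabelings can give.

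Within each run, both G234D cultures lay above both WT cultures for Mkx, and 4 of 4 were above the WT mean of set 1. The log2 difference by genotype was 0.26 in set 1 (95% interval −0.057 to 0.57, adjusted p = 0.858). With the title-number run in the fit it was 0.26 again (95% interval 0.026 to 0.49, unadjusted p = 0.0331, adjusted p = 0.469), where 0.0084% of genes were called. In set 2, with 1.84 TPM in W5, 1.49 TPM in W6, 1.42 TPM in M5, 1.71 TPM in M6 and 1.62 TPM in M7, the difference was −0.044 (95% interval −0.41 to 0.32). The change of the difference between the sets was −0.30 (SE 0.21, adjusted p = 0.912).

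Levels of the other genes of the 3 lineages ranged from 0 in all 13 cultures to well above those of the regulators. Of 33 other chondrogenic genes 15 had a mean of 1 TPM or more. Col2a1, the collagen of cartilage, had a median of 0.427 TPM and stayed under 1 TPM in every culture, and aggrecan (Acan) ranged from 0.299 to 6.07 TPM. Matn1 was at 0 in 10 of 13 cultures and Snorc in all 13. Higher genes of this list included Col11a1, Matn2 and Pth1r, with medians of 71.2, 44.2 and 26.1 TPM. The SOXC factors Sox4, Sox11 and Sox12 had medians of 163, 15.4 and 30.7 TPM, and the SOX5 and SOX6 relative Sox13 had 2.99 TPM.

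Of 32 other osteogenic genes 21 had a mean of 1 TPM or more. Osterix (Sp7) ranged from 0.160 to 1.74 TPM. Osteocalcin (Bglap) was at 0 in 10 cultures, and the bone sialoprotein gene Ibsp and the bone matrix gene Mepe were at 0 in all 13. The RUNX2 partner Cbfb had a median of 122 TPM and the RUNX relative Runx1 29.4 TPM. Sparc and Postn, of the same list, had medians of 6435 and 4995 TPM. Of 24 tendon genes 19 had a mean of 1 TPM or more, among them Tnmd, the late tendon product, with a median of 32.5 TPM and a range of 25.5 to 52.6 TPM. The corneal and tendon proteoglycan Kera stayed under 1 TPM, and Thbs4 reached 1 TPM in 1 culture. These named genes were chosen after their levels were seen.

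**Figure D4:**
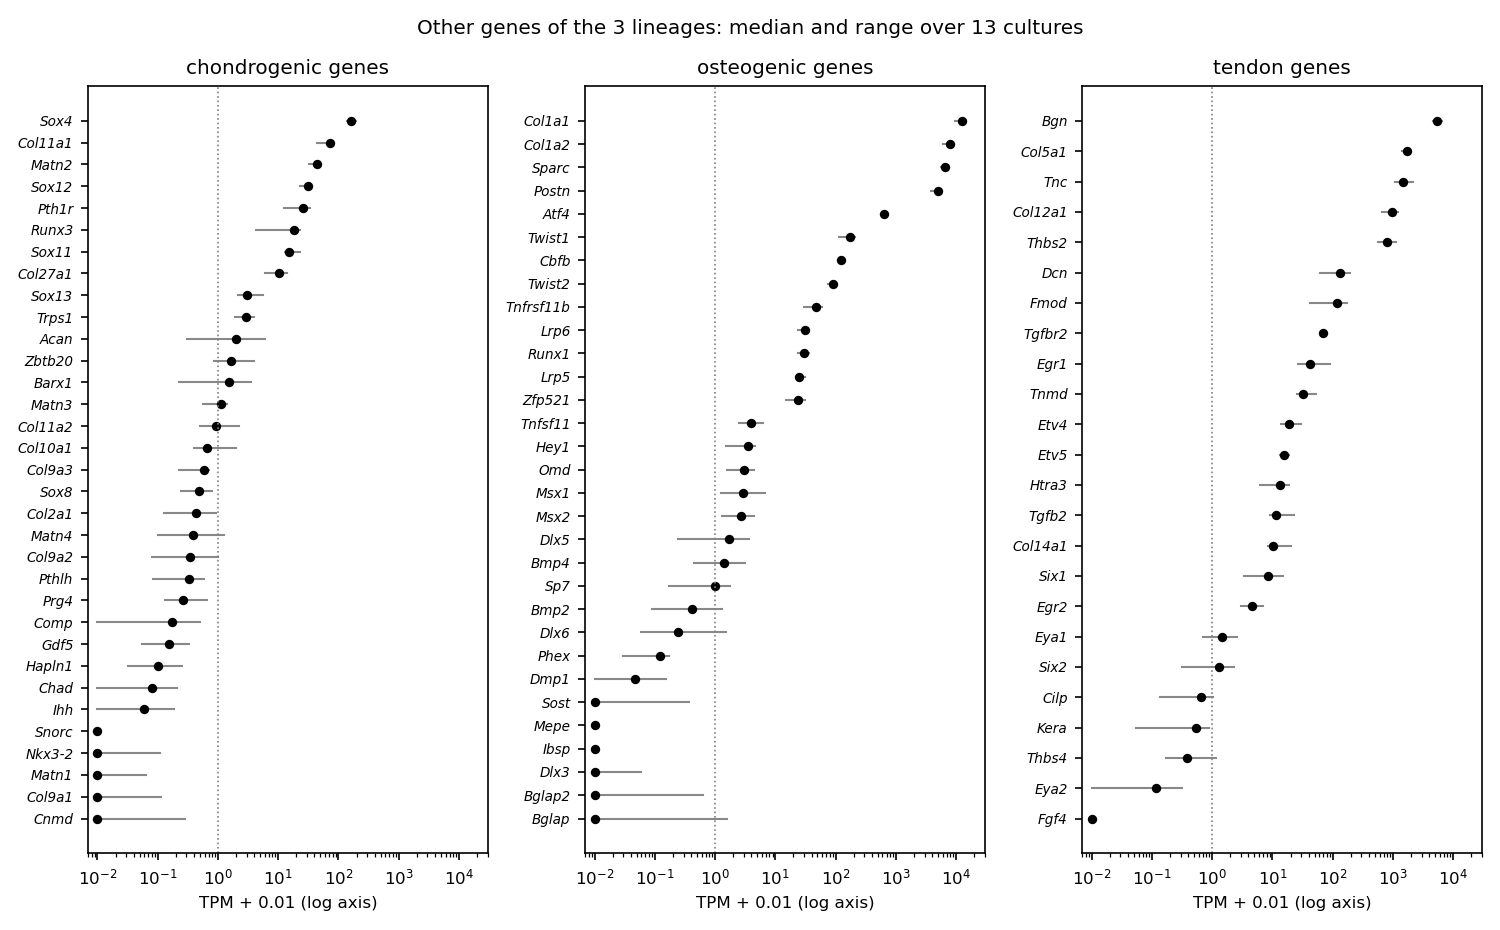
Median (points) and range (lines) of TPM over the 13 cultures for the other chondrogenic, osteogenic and tendon genes, on a log axis of TPM + 0.01; the dotted line marks 1 TPM. Snorc, Ibsp and Mepe lie at 0 throughout, and Tnmd has a median of 32.5 TPM.

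By genotype over both sets, limma called 0 of 15 chondrogenic, 0 of 22 osteogenic, 0 of 19 tendon and 0 of 16 mineral balance genes tested, against 0% of all genes. The median log2 differences of these lists were −0.036, −0.051, 0.029 and 0.020, beside 0.011 over all genes. The osteogenic list had 6 positive and 16 negative members. In it Bmp4, a bone morphogenetic protein gene, and the osteoclast-inducing cytokine gene Tnfsf11 had differences of −0.33 and −0.25.

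In the chondrogenic list, 7 positive and 8 negative, the smallest p were those of Col11a2 at 0.22, Sox11 at −0.19 and Runx3 at −0.58. Runx3 averaged 13.1 TPM in W1 and W2 and 4.30 TPM in M1 and M2, but 20.8 and 16.0 TPM in the later run and 19.9 and 19.3 TPM in set 2. In the tendon list, 12 positive and 7 negative, they were those of Col14a1 at 0.56, Tgfbr2 at 0.087 and the immediate early factor Egr1 at 0.44. In the mineral balance list, 10 positive and 6 negative, they were those of the osteopontin-binding integrin subunit Itgb5 at −0.092, the calcification inhibitor Mgp at 0.49 and Phospho1, a phosphatase of matrix vesicles, at 0.29. Adjusted p values of these 11 genes ran from 0.696 to 0.886. Some of these differences were not shared by the sets. Sox11 averaged less in G234D than in WT in both runs, but 13.5 TPM in WT and 14.8 TPM in G234D in set 2. Mgp averaged 53.6 and 92.8 TPM in the earlier run and 44.7 and 82.8 TPM in the later run, but 136 and 129 TPM in set 2. Col14a1 averaged 8.66 and 20.2 TPM, then 9.30 and 14.2 TPM, but 9.64 and 10.3 TPM in set 2.

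Between the runs of set 1, with genotype held, limma called 7.14% of all genes. It called 3 of 14 chondrogenic genes, 1 of 20 osteogenic genes, 5 of 19 tendon genes and 3 of 16 mineral balance genes, but 0 of the 5 regulators tested. Among the chondrogenic genes Runx3 rose by 1.14 (SE 0.22) and the matrilin Matn2 by 0.31 in the later run, while Sox13 fell by 0.64. The osteogenic call was Zfp521, a zinc finger repressor of osteoblast differentiation, which rose by 0.56. In the tendon list Tgfb2, a TGF-beta ligand gene, fell by 0.95 (SE 0.095, adjusted p = 0.00511) and Thbs2 by 0.61, while Dcn rose by 0.65. The other calls of that list, named after their values were seen, were Egr2 at 0.64 and Etv4 at −0.60. In the mineral balance list the vitamin D receptor gene Vdr rose by 0.59 and the ecto-nucleotidase gene Nt5e by 0.47, while Itgb1 fell by 0.37. Leaving out 1 culture moved the number called over all genes to between 36 (without M2) and 865 (without W2). The number was 298 without W1, 495 without W3, 756 without W4, 120 without M1, 349 without M3 and 288 without M4.

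Several lineage genes also had a genotype difference that changed between the runs, in either direction, where 2.81% of all genes were called. The calls were 2 of 14 chondrogenic, 4 of 20 osteogenic, 2 of 19 tendon and 5 of 16 mineral balance genes. The change was positive, as for Sox9, in 2, 3, 1 and 1 of these calls. The genes named next were chosen after their values were seen. Twist1, which restrains RUNX2 activity, averaged 151 TPM in W1 and W2 and 119 TPM in M1 and M2, but 166 TPM in W3 and W4 and 201 TPM in M3 and M4, a change of 0.62 (SE 0.079, adjusted p = 0.00767). Pth1r, the parathyroid hormone receptor of bone and growth plate, averaged 21.1 and 12.8 TPM in WT and G234D of the earlier run and 23.8 and 28.6 TPM in the later run. Fmod, a small proteoglycan of tendon, averaged 76.4 and 46.6 TPM, then 83.1 and 133 TPM. In the other direction Tnfrsf11b, the decoy receptor osteoprotegerin, averaged 47.3 and 60.0 TPM, then 50.4 and 33.0 TPM. Cd44, a receptor for osteopontin and hyaluronan, averaged 216 and 268 TPM, then 213 and 155 TPM. The fibroblast markers Pdgfra and Col3a1 also changed, by 1.02 and 0.95, as did the muscle markers Tnni2 and Acta1, by −1.80 and −1.47, and 6 of 8 Schwann cell and melanocyte markers tested changed by between −2.10 and −1.57. The number called over all genes was 79 without W1, 69 without W2, 173 without W3, 61 without W4, 46 without M1 and 686 without M3, and the replicate block moved it from 334 to 189.

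No pair of the 8 genes passed a test of correlation: of 28 pairs, correlated after centring by set and genotype, 0 had a permutation p under 0.05 after Benjamini-Hochberg adjustment (lowest 0.520 for Pearson r and 0.495 for Spearman rho). The pair with the highest Pearson r was Sox5 and Mkx (r = 0.80, permutation p = 0.0372, adjusted p = 0.520, n = 13). Its Spearman rho was 0.80 (permutation p = 0.0514, adjusted p = 0.495). Without W4 and M4, the cultures farthest from the median of Sox5, r was 0.73. Centred by set alone the pair gave r = 0.69 (permutation p = 0.0366, adjusted p = 0.324). Its rho was then 0.71 (permutation p = 0.0172, adjusted p = 0.416), and r was 0.65 without W4 and M4. Both genes were lower in the later run of set 1. Centred also by run, an alternative chosen after the values were seen, the pair gave r = 0.25 (permutation p = 0.364, adjusted p = 0.728). The rho of the pair was then 0.31 (permutation p = 0.344, adjusted p = 0.704). The estimate was smaller within runs, but so few cultures per group cannot tell a moderate relation from none. Without M3 and M4, then the farthest, r was 0.27. Of the 28 pairs 0 passed with this centring (lowest adjusted p = 0.359). Permuting within groups of 2 or 3 cultures allows few arrangements, so no single pair could have passed the adjustment alone. The highest r was then 0.86, for Runx2 and Spp1 (permutation p = 0.0519, adjusted p = 0.453). Runx2 and Scx had the smallest permutation p when centred by set and genotype (Pearson r = 0.63, permutation p = 0.0205, adjusted p = 0.520). Their r was 0.31 centred by set alone and 0.69 centred also by run.

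The genes whose pattern over the 13 cultures, centred by set, was most like each regulator were found among 11942 genes, and the highest of so many correlations are given as a description only, with the run split of set 1 left in. For Sox9 they were Btbd6 (Pearson r = 0.96), the ephrin receptor Ephb4 (0.91) and Zbtb5 (0.88). For Runx2 they were Foxp4, a forkhead factor (0.94), Erc1 (0.93) and Zfp369 (0.92). For Mkx they were Xylt2, a xylosyltransferase that starts proteoglycan chains (0.93), the glycogenin gene Gyg (0.93) and Pgm5 (0.92). For Spp1 they were the kinase gene Stk24 (0.89), AW551984 (0.87) and Epha7 (0.86), and for Scx they were Npepl1 (0.85), Nap1l3 (0.84) and Slc25a43 (0.84).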

How the data were processed

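RNA of 13 primary cultures was sequenced from strand-specific libraries of total RNA, per the labels' protocols. Per the file headers, the deposited unit was TPM, computed by the authors; every library summed to 1000000 over 25655 genes. The submitters' processing notes name mm10. The aligner, counter and annotation release: not given in the sources used here. Gene identifiers came from the set 2 tables, and 25600 matched GENCODE release M21, which gave coordinates.

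Differences in log2(TPM + 1) were tested with limma 3.58.1 in R 4.3.3 (mean-variance trend, robust empirical Bayes), with the Benjamini-Hochberg adjustment over all genes tested. The filter asked for 1 TPM in 6 libraries for both sets together, 4 for set 1 and 2 for set 2. Members below this were tested by exact permutation. The models were tested on simulated data. Marker and gene lists, the members and the division of set 1 by title number were chosen with earlier results of these data known. Named genes are the 8 members, Fbn1, up to 3 list genes of smallest p over both sets (for lineage lists also between the runs) and the 3 most alike genes; others are said to be outside this rule. One gene of the osteogenic list is not reported here. The precision is set by a median SE of the log2 difference of 0.062 for both sets together, 0.080 for set 1 and 0.087 for set 2, and depth is unknown.

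Replicate numbers are shared between genotypes by label. Deviations of same-numbered cultures from their group means correlated at 0.314, 0.236, 0.244 and 0.214 in set 1, all over 0.1. In set 2 they correlated at −0.155 and 0.014, and the numbers were not taken to pair those cultures. The group means were those of set and genotype, so the run difference of set 1 stayed in the deviations. Each replicate number lies within 1 run, so pairing by number and a shared run cannot be told apart in set 1. The replicate block was therefore used as an alternative and not in the main fits. Alternatives were a pseudocount of 0.1, no filter, a filter at 10 TPM, median-of-ratios scaling, the replicate block, the title-number run as a block, leaving out each culture and leaving out M1 and M2. Promoter sequences are RefSeq's, build GRCm38.p6.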

Additional observations from a re-analysis of the deposited data

Results flagged for a closer look

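Sox9 differed between the runs of set 1 in its genotype difference, by a test of that change itself: −0.40 in the earlier run and 0.32 in the later run, a change of 0.72 on the log2 scale. The adjusted p was 0.0346 in the main limma fit, but 0.0609 with the replicate block and 0.0773 with no filter. Leaving out 1 culture, the change ran from 0.60 to 0.84. All 4 G234D cultures lay on the side of their run, which was itself a rule for flagging.

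Sox6 also had a genotype difference that changed between the runs, by a test of that change in the fit with no filter: 1.116 in the earlier run and −0.014 in the later run, a change of −1.13. The adjusted p of that limma fit was 0.0394, but 0.140 with the replicate block. Without M1 the change was −1.02 and without M2 it was −1.24. M1 and M2 were the 2 cultures that reached 1 TPM.

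Alpl moved in opposite directions in the runs, by −0.30 in both earlier G234D cultures on average and by 0.32 in the later ones. Every G234D culture of set 1 lay on the side of its run against the WT mean, the rule that flagged the gene. The 2 WT cultures of the earlier run were far apart. In the fit with no filter the change was 0.62 with an adjusted p of 0.323.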

How the results depend on the processing

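Over both sets the count called stayed at 0 in each alternative run. In set 1 it was 0, but 1 with the replicate block and 26 without M1 and M2, and 0 to 2 leaving out 1 culture. In set 2 it was 1, but 0 with no filter, 0 with a filter at 10 TPM, 21 with the replicate block (numbers that did not pair these cultures) and 0 to 14 leaving out 1 culture. For the change between sets it was 0 to 1 leaving out 1 culture. Between the runs it was 850, but 269 with no filter and 36 to 865 leaving out 1 culture. For genotype with the run in the fit it was 1, but 0 with no filter and 0 to 8 leaving out 1 culture. For the change between runs it was 334, but 139 with no filter, 189 with the replicate block and 46 to 686 leaving out 1 culture. The cause was not tested.

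No genotype or run difference of the 5 genes tested passed the threshold in any of 279 alternatives, and 20 of these alternatives turned the sign of a value close to 0. Without M1 and M2, Sox9 differed by 0.047 over both sets and 0.19 in set 1. With the replicate block Scx in set 2 was at −0.13, and with median-of-ratios scaling Runx2 between the runs was at 0.011. Leaving out 1 culture, values that turned ranged as follows. In set 1 Sox9 ran from −0.14 to 0.073 and Spp1 from −0.079 to 0.17. In set 2 Scx ran from −0.17 to 0.27 and Mkx from −0.14 to 0.050. Between the runs Sox9 ran from −0.024 to 0.21 and Runx2 from −0.072 to 0.025. For the change between runs Runx2 ran from −0.0072 to 0.24 and Scx from −0.68 to 0.53. No paired fit could be made between the runs, because each replicate number lies within 1 run. Depth is unknown and limits the 3 genes under 1 TPM most.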
